A study of Mus musculus with 6 samples.

Results

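The 35 genes described here are genes that astrocytes of the mouse brain express at high level, or that mark their maturation, out of 36008 genes in the deposited gene table. They were taken by symbol from a list and matched to the gene and transcript identifiers through GENCODE M21, and all 35 were found. RNA came from the hippocampus of 6 female mice of the B6J strain at 2 weeks of age. The WT group held 3 mice and the Prmt9 KO group held 3 mice, and the Prmt9 KO mice carried a deletion of the gene in the whole body. That allele was made by germline Cre recombination, under a CMV promoter, of a loxP-flanked exon 5 of Prmt9, and the WT mice were littermates matched for sex. PRMT9 is an arginine methyltransferase whose known substrate, SF3B2, is a subunit of the U2 snRNP, which recognises the 3′ end of introns. The comparison asks which genes and which transcript forms differ between hippocampi with and without PRMT9.

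Astrocytes arise from radial glia around birth, divide locally, and mature over the first postnatal weeks. Maturing astrocytes switch on glutamate transporters, potassium and water channels, gap junction proteins and glutamine synthetase, which clear transmitter and ions from around synapses. Genes of the progenitor state, such as Fabp7 and the Id factors, are known to decline as this proceeds. In a bulk sample, fewer astrocytes and less RNA per astrocyte cannot be told apart.

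Values are TPM (a transcript's share of the library, scaled by transcript length) unless another scale is named, and fold changes are from edgeR on estimated counts, Prmt9 KO minus WT on the log2 scale. The libraries held 194098391 to 286771677 estimated counts. Prmt9 itself was at 11.78, 15.25 and 14.96 TPM in the WT mice and at 3.93, 4.61 and 4.67 TPM in the Prmt9 KO mice (log2 fold change -1.71 ± 0.1 SE, adjusted p = 0.0327 by edgeR). Both mice numbered 1, one of each genotype, stood apart from the other 4. On a first component that held 68.1% of the variance they scored 123.9 (WT) and 24.7 (Prmt9 KO), against -39.5 to -33.5 in the others. The WT mouse numbered 1 thus lay furthest out, and its library differed in another way. In it 37.3% of transcripts were at 0, against 24.7% in the Prmt9 KO mouse numbered 1 and 22.6 to 23.7% in the others. The part of this library difference in the split was not tested. The summed level of 10 oligodendrocyte markers was 2275.5 and 1231.3 TPM in these 2 mice and 8496.7 to 12388.4 TPM in the others. Conversely, 10 of 10 genes of newborn neurons and dividing cells, a list chosen after the data were seen, were higher in both than in the others (summed 2062.6 and 2672.3 against 881.1 to 952.6 TPM). Of all genes, 19.0% were higher in both in TPM. Tubb2b (947 and 1280 TPM) and Stmn1 (1010 and 1280 TPM) held most of these sums. The margin was narrow for Sox4 (14.9 and 16.2 against 12.4 to 14.8 TPM) and wide for Cdk1 (14.4 and 11.7 against 2.63 to 3.18 TPM). No marker of oligodendrocytes was at 0 in any mouse. The labels give no reason for this split, so results are given with and without these mice. Fits with a batch term or with the mouse number as a block were run as alternatives. The labels also do not pair mice of the same number, and the data did not tell pair 2 from pair 3. Differences between mice of the same number are therefore descriptions and not paired replicates.

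In some members the genotypes differed in the share of a transcript form without overlap between mice, although no member passed the model of transcript usage over all 6 mice. Of the members, 30 had more than 1 annotated transcript, and in 16 of these a single transcript held over 90% of the gene's TPM in the WT mice. Over all members, 47 transcripts of 18 members had a mean share between 5 and 95% and a mean of at least 1 TPM. The shares of 14 of these (29.8%) did not overlap between the 3 WT and the 3 Prmt9 KO mice, against 9.58% of all such transcripts. Shares of 1 gene are tied to each other, so the count by gene is the more direct one. It was 8 of 18 members (44.4%), against 21.6% of all genes and 27.4% of genes at or above the lowest mean level of those members (35.7 TPM). The exact test of 3 mice against 3 cannot go below p = 0.1, and each of the shares that did not overlap had this value. The transcript forms described next were picked after their values were seen.

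Gfap encodes the intermediate filament protein of astrocytes, and its transcript Gfap-202 ends in an exon of its own, at chr11:102890166-102891520 (GRCm38, minus strand, 1355 bases). This form, known as GFAP delta, replaces the tail of the standard protein. The coding bases of Gfap-202 that follow its last exon in common with Gfap-201 (chr11:102891396-102891520, minus strand) are shown because this is where the forms part, with the stop codon in capitals.
Gfap-202: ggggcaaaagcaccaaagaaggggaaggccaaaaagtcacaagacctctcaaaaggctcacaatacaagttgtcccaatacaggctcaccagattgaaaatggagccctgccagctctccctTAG
Gfap-202 held 7.4, 7.7 and 7.8% of the Gfap TPM in the WT mice and 10.2, 10.3 and 10.9% in the Prmt9 KO mice. All 3 knockout mice were above all 3 WT mice, and the mice numbered 1 did not stand apart from their groups. WT mice averaged 7.6% ± 0.16 and Prmt9 KO mice 10.5% ± 0.37 (SD, n = 3 each), a difference of 2.9 percentage points (exact permutation p = 0.1, two-sided). The level of Gfap-202 was 17.42, 20.14 and 20.11 TPM in WT and 25.7, 29.04 and 30.55 TPM in Prmt9 KO (log2 fold change 0.49 ± 0.13 SE, unadjusted p = 0.00799 and adjusted p = 1.0 by edgeR). Gfap-201, the standard form, took 91.5, 91.4 and 91.7% in WT and 89.3, 89.0 and 88.6% in Prmt9 KO.

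Ntsr2 encodes the low-affinity neurotensin receptor, which in the brain is found mainly on astrocytes. Its transcript Ntsr2-205 keeps the intron at chr12:16656871-16658364 (plus strand, 1494 bases) and is annotated as a retained intron without a coding sequence. Both ends of that intron are shown with its first and last 2 bases in capitals, together with 20 bases of the exon on each side. The first stretch is chr12:16656851-16656930 and the second is chr12:16658265-16658384.
Ntsr2 intron start: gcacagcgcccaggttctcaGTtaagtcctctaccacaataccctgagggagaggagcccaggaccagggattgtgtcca
Ntsr2 intron end: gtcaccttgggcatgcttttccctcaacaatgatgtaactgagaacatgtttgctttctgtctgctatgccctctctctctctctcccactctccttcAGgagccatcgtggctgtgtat
The form with the intron held 32.1, 33.2 and 34.0% of the Ntsr2 TPM in the WT mice and 41.9, 42.0 and 45.7% in the Prmt9 KO mice. The groups did not overlap, and the lowest knockout share lay well above the highest WT share. Means were 33.1% ± 0.96 for WT and 43.2% ± 2.18 for Prmt9 KO (SD, n = 3 each), 10.1 percentage points apart (exact permutation p = 0.1, two-sided). The spliced coding form Ntsr2-201 held 56.1, 57.2 and 56.8% in WT and 47.3, 48.9 and 44.7% in Prmt9 KO. TPM scales by length, and by estimated counts the 2757-base Ntsr2-205 held more than the 1524-base Ntsr2-201 in every mouse. Its share of the counts was 49.6 to 51.1% in WT and 59.7 to 63.4% in Prmt9 KO. The summed level of Ntsr2 overlapped between genotypes, at 112.6, 195.8 and 198.8 TPM in WT and 106.1, 187.8 and 195.5 TPM in Prmt9 KO.

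Ndrg2 encodes an alpha/beta hydrolase fold protein of astrocytes that is used as a marker of mature cells. A cassette exon of 42 bases, or 14 codons, at chr14:51911086-51911127 (minus strand) is present in Ndrg2-201 and absent from Ndrg2-202. It is shown in capitals with 30 coding bases on each side.
Ndrg2-201: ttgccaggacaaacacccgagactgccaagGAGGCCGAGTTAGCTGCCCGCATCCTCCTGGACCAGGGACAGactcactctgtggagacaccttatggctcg
Among transcripts that join the exons on either side, the exon was included in 24.3, 27.5 and 28.1% of the TPM in the WT mice and in 20.8, 18.5 and 17.7% in the Prmt9 KO mice. Every knockout mouse was below every WT mouse, and the gap between genotypes was smallest in the mice numbered 1. WT mice included it at 26.6% ± 2.05 on average and Prmt9 KO mice at 19.0% ± 1.61 (SD, n = 3 each; exact permutation p = 0.1, two-sided). The difference between mice of the same number was -3.5 percentage points for number 1, -9.0 for number 2 and -10.4 for number 3. Ndrg2-201 itself was at 86.11, 172.3 and 183.0 TPM in WT and at 77.71, 110.3 and 105.3 TPM in Prmt9 KO (log2 fold change -0.62 ± 0.19 SE, unadjusted p = 0.0166 and adjusted p = 1.0 by edgeR). Ndrg2-202, the leading form, held 57.0, 46.2 and 46.4% of the gene in WT and 60.2, 53.7 and 53.2% in Prmt9 KO, with overlap.

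Mlc1 encodes a membrane protein of astrocyte end-feet whose mutation causes a leukodystrophy with cysts. Its transcripts Mlc1-201 and Mlc1-202 differ in the 3′ splice site before the exon with the start codon, and Mlc1-202 starts that exon 18 bases earlier, at chr15:88977998-88978015 (minus strand). These bases, in capitals and followed by the shared part of the exon (chr15:88977936-88978015 in all), hold a start codon in the same frame as the one further on, and would add 6 codons.
Mlc1-202: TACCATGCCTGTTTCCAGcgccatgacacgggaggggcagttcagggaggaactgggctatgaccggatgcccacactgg
Mlc1-202 held 6.9, 4.4 and 3.9% of the Mlc1 TPM in the WT mice and 8.0, 6.9 and 7.1% in the Prmt9 KO mice. The groups did not overlap, but only by a margin below the first decimal between the WT mouse numbered 1 and the lowest knockout mouse. Means were 5.1% ± 1.6 and 7.3% ± 0.57 (SD, n = 3 each; exact permutation p = 0.1, two-sided), and within numbers the knockout was higher by 1.1, 2.5 and 3.2 percentage points.

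The sodium bicarbonate cotransporter Slc4a4 was a contrast to these, since its forms followed the mouse number and not the genotype. A 97-base coding exon at chr5:89232764-89232860 (plus strand) is present in Slc4a4-207 and skipped in Slc4a4-208, and since its length is not a multiple of 3 the 2 forms end in different frames. It is shown in capitals with 30 coding bases on each side.
Slc4a4-207: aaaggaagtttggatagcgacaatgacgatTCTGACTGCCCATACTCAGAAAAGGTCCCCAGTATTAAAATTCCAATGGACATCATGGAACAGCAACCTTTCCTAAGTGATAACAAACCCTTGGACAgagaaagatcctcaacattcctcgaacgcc
Among transcripts that join its neighbours, the exon was included in 86.1, 66.2 and 63.6% of the TPM in the WT mice and in 81.1, 63.5 and 64.7% in the Prmt9 KO mice. Both mice numbered 1 were above all others, whereas the genotypes overlapped (71.9% ± 12.3 and 69.8% ± 9.81, SD, n = 3 each; exact permutation p = 0.6, two-sided). Such a split by number was common: in 25 of the 47 member transcripts both mice numbered 1 lay outside the range of the other 4, against 52.8% of all such transcripts.

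Shares without overlap were also found in 4 further members. For Gpc5, a glypican, the form Gpc5-201 took 33.9, 34.2 and 36.9% in WT and 43.0, 38.8 and 39.8% in Prmt9 KO, at the expense of Gpc5-203. The 419-base form Slc7a10-204 of the serine and alanine exchanger held 13.2% ± 2.01 for WT against 19.0% ± 2.45 for Prmt9 KO (SD, n = 3 each). TPM scales by length, and of the estimated counts this short form held 1.9 to 2.6% in WT and 2.8 to 3.7% in Prmt9 KO. In Fgfr3, a receptor for fibroblast growth factors, Fgfr3-201 had 14.5% ± 2.91 in WT and 10.8% ± 0.87 in Prmt9 KO, and Fgfr3-209 had 11.9% ± 0.65 and 12.7% ± 0.23. In Mt3, the metallothionein of the brain, Mt3-202 had 4.9% ± 0.15 and 5.8% ± 0.35. Each of these 4 had an exact permutation p of 0.1, the smallest this design allows. The leading forms by TPM of Slc7a10 (Slc7a10-201) and Fgfr3 (Fgfr3-217) overlapped between genotypes. So did those of the other members with at least 2 transcripts of 10% or more, Aqp4-201, Gjb6-201, Atp1b2-201, Aldh1l1-201, Aldoc-202, Sparc-201, Id3-201 and the thinly covered Chrdl1-201 and Chrdl1-202. By estimated counts the 780-base Fgfr3-217 held only 3.3 to 6.2% of Fgfr3, and Fgfr3-215 held 18.1 to 31.1%.

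**Figure D1:**
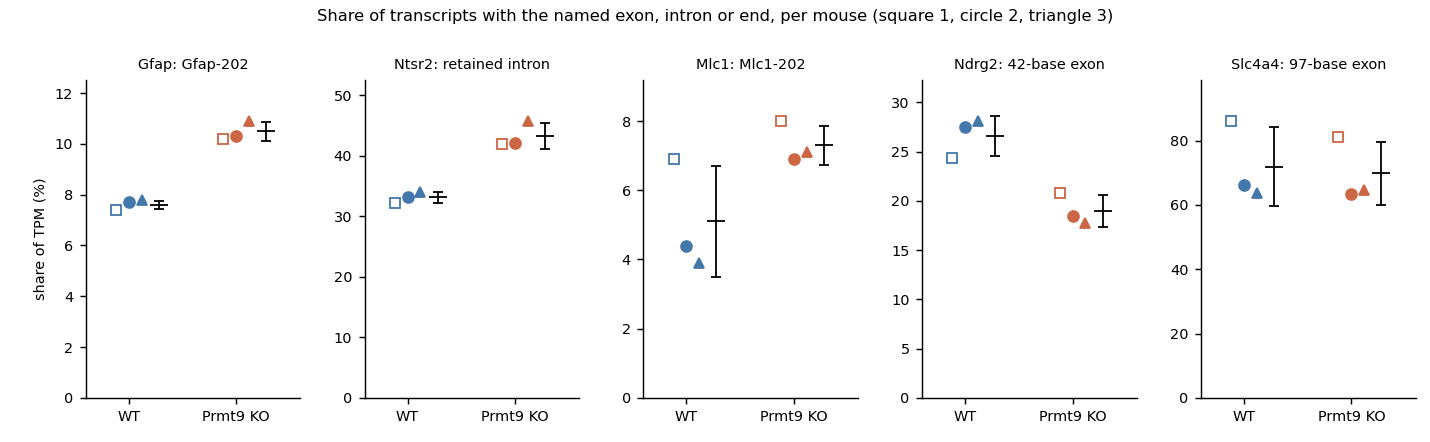
Share (percent, from 0) of the gene's TPM held by Gfap-202, the Ntsr2 form with the retained intron and Mlc1-202, and, for the Ndrg2 and Slc4a4 exons, share of the TPM of transcripts that join the exons on either side; each symbol is 1 mouse (open square number 1, circle 2, triangle 3; blue WT, orange Prmt9 KO), and the bars are the mean ± SD of 3 mice. Gfap-202 sits at 7.4 to 7.8% in WT and 10.2 to 10.9% in Prmt9 KO, and the Slc4a4 exon is highest in both mice numbered 1.

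Across all 6 mice the model of transcript usage (edgeR diffSpliceDGE, Simes test per gene) called 0 of 30 members (adjusted p under 0.01), where 0.17% of all genes were called, and 0 members had an unadjusted p below 0.05. Without both mice numbered 1, it called 2 of 30, against 1.82% of all genes. These were Ndrg2 (adjusted p = 1.09e-09) and Mlc1 (adjusted p = 0.00596). Next in that fit of 4 mice were Gfap (adjusted p = 0.0113), Slc1a2 (adjusted p = 0.0241) and Ntsr2 (adjusted p = 0.0313). With 2 mice a group, these p-values rest on a thin estimate of the spread. For the level of single transcripts, 2 of 149 tested had an unadjusted p below 0.05 by edgeR, Gfap-202 and Ndrg2-201, against 1.61% of all transcripts, and none passed adjustment (lowest adjusted p = 1.0, and 0.585 by DESeq2).

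At the level of whole genes no member was called. All 35 passed the filter on low counts, and edgeR called 0 of them (a call needed an adjusted p under 0.01 with a change of over 1.5-fold), as it called 0.0% of the 20315 genes tested. Prmt9, the deleted gene, missed this cut-off too (adjusted p = 0.0327 by edgeR). The lack of calls in this fit therefore does not show that the members were unchanged. Unadjusted, 0 members had a p below 0.05, against 1.24% of all genes, and DESeq2 and limma called none either. Log2 fold changes ran from -0.30 to 0.24 with standard errors of 0.09 to 1.19, and their median was 0.01, beside -0.01 over all genes. The widest errors belonged to genes that differed between the mice numbered 1 and the rest.

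**Figure D2:**
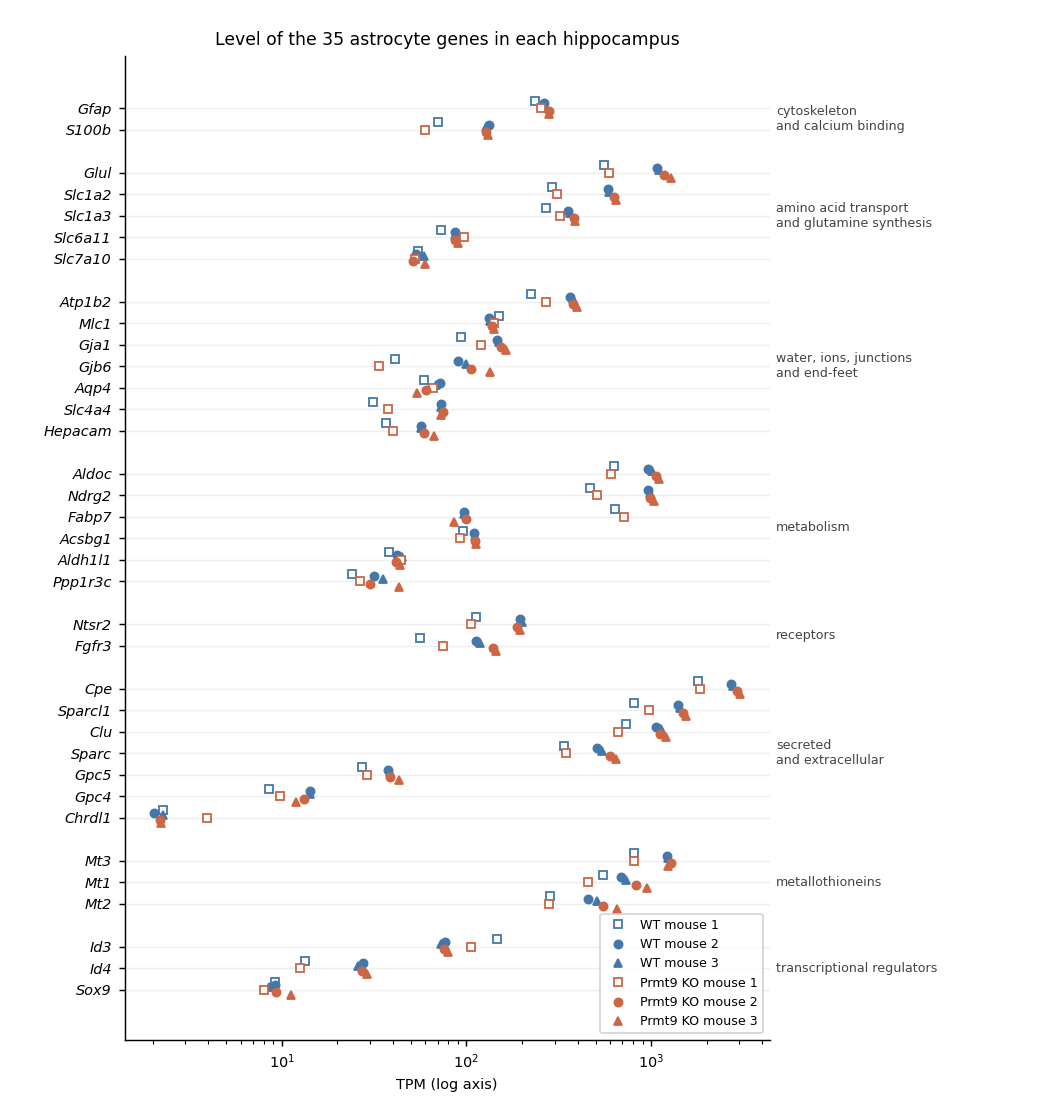
TPM (log axis) of each of the 35 astrocyte genes in each of 6 hippocampi, grouped by role; blue is WT, orange is Prmt9 KO, and open squares are the mice numbered 1. For most genes the colours lie together and the open squares lie apart, as for Fabp7, at 641.4 and 712.8 TPM in these 2 mice and 85.5 to 99.1 TPM in the others.

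Among cytoskeletal and calcium-binding members, Gfap was at 234.1, 263.0 and 259.2 TPM in WT and at 252.0, 281.3 and 280.6 TPM in Prmt9 KO. In TPM each knockout mouse was above the WT mouse of its number, but the groups overlapped, and on the CPM scale of the fit number 1 went the other way (369.8 against 399.6 CPM; log2 fold change 0.03 ± 0.1 SE, adjusted p = 1.0 by edgeR). S100b, a calcium-binding protein, was at 59.7 to 69.9 TPM in the mice numbered 1 and at 127.1 to 131.8 TPM in the others.

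Of the genes that clear transmitter, Glul (glutamine synthetase) had the highest level. It was at 554.5, 1072.8 and 1101.9 TPM in WT and at 592.2, 1168.8 and 1282.4 TPM in Prmt9 KO, and so split by mouse number rather than genotype (log2 fold change 0.10 ± 0.29 SE, adjusted p = 1.0 by edgeR). The glutamate transporter Slc1a2 (GLT-1) ranged from 289.6 to 646.8 TPM, with both mice numbered 1 lowest. Slc1a3 (GLAST), the transporter that appears first in development, ranged from 269.1 to 388.8 TPM in the same order. Slc6a11, the GABA transporter GAT-3, was at 73.1, 87.0 and 86.3 TPM in WT and at 96.6, 87.3 and 90.3 TPM in Prmt9 KO. It was the only member whose groups did not overlap in TPM (6.67% of all genes did not), by a margin of 87.3 against 87.0 TPM, and they overlapped on the CPM scale. Its log2 fold change was 0.08 ± 0.12 SE (adjusted p = 1.0 by edgeR). Slc7a10, which exchanges serine and alanine, lay within 51.1 to 59.4 TPM in all 6 mice.

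Of the genes for water, ions and junctions, Aqp4, the water channel of end-feet, was at 58.6, 72.4 and 68.7 TPM in WT and at 66.0, 60.7 and 54.2 TPM in Prmt9 KO. In TPM the knockout was lower in numbers 2 and 3 and higher in number 1, but on the CPM scale of the fit it was lower in number 1 too (177.0 against 188.9 CPM; log2 fold change -0.22 ± 0.19 SE, adjusted p = 1.0 by edgeR). Gjb6 (connexin 30) had the largest split by number on the low side, at 33.8 to 40.9 TPM against 90.1 to 133.5 TPM. Gja1 (connexin 43) ranged from 93.4 to 163.7 TPM, Slc4a4 from 31.3 to 74.9 TPM and Atp1b2, a subunit of the sodium pump, from 223.1 to 395.8 TPM, with the mice numbered 1 lowest in each. Mlc1 lay within 132.8 to 150.7 TPM, and its partner Hepacam (GlialCAM) ranged from 36.9 to 67.0 TPM.

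The metabolic members held the gene that varied most between mice, Fabp7. Aldh1l1, the folate enzyme used as a general marker of astrocytes, lay within 37.9 to 44.6 TPM in all mice. Aldoc, a glycolytic aldolase, was at 632.2, 964.6 and 1005.9 TPM in WT and at 607.5, 1069.0 and 1106.2 TPM in Prmt9 KO. Ndrg2 was at 468.6, 965.2 and 983.3 TPM in WT and at 510.3, 981.7 and 1040.8 TPM in Prmt9 KO. Both thus followed mouse number, with no separation of genotypes. Fabp7, a fatty acid binding protein of radial glia and young astrocytes, was at 641.4, 97.1 and 97.0 TPM in WT and at 712.8, 99.1 and 85.5 TPM in Prmt9 KO. One mouse of each genotype was high and the other 4 lay close together, which left a log2 fold change of -0.05 ± 1.19 SE (adjusted p = 1.0 by edgeR). Acsbg1, which activates long-chain fatty acids, ranged from 92.1 to 112.2 TPM and Ppp1r3c, a glycogen-targeting subunit of protein phosphatase, from 24.0 to 43.4 TPM.

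The receptor Fgfr3 was at 56.1, 113.0 and 119.0 TPM in WT and at 74.6, 139.4 and 144.4 TPM in Prmt9 KO. It was higher in the knockout mouse of every number, by a ratio of 1.33, 1.23 and 1.21, and had the highest log2 fold change of all members (0.24 ± 0.23 SE, adjusted p = 1.0 by edgeR). On the CPM scale the first of these differences was small, at 115.4 against 117.0 CPM.

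Secreted and extracellular members included the highest. Cpe, a peptide-processing enzyme that neurons also make, was at 1785.3, 2703.4 and 2770.5 TPM in WT and at 1847.7, 2909.3 and 3039.1 TPM in Prmt9 KO. Sparcl1 (hevin), which promotes synapse formation, was at 803.0, 1396.1 and 1429.3 TPM in WT and at 978.4, 1487.5 and 1548.4 TPM in Prmt9 KO. Clu, the chaperone clusterin, was at 730.2, 1063.1 and 1129.8 TPM in WT and at 662.5, 1122.3 and 1204.9 TPM in Prmt9 KO. In all of these the mice numbered 1 were lowest and genotypes overlapped (log2 fold changes 0.01, 0.10 and -0.04). Sparc, which opposes hevin, ranged from 336.7 to 649.4 TPM, Gpc4 from 8.5 to 14.3 TPM and Gpc5 from 27.3 to 43.2 TPM. Chrdl1, a secreted BMP antagonist that matures synapses, was the lowest member, at 2.29, 2.04 and 2.27 TPM in WT and at 3.92, 2.19 and 2.23 TPM in Prmt9 KO, so that its log2 fold change of 0.21 ± 0.36 SE came from 1 mouse.

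Metallothioneins bind zinc and copper. Mt3 was at 808.6, 1225.7 and 1239.9 TPM in WT and at 811.5, 1287.7 and 1237.6 TPM in Prmt9 KO. Mt1 was at 547.1, 684.6 and 732.3 TPM in WT and at 456.0, 833.0 and 947.6 TPM in Prmt9 KO, and Mt2 at 284.7, 453.8 and 511.2 TPM and at 280.0, 546.2 and 653.3 TPM. The inducible Mt1 and Mt2 were thus higher in the knockout mice numbered 2 and 3 and not in number 1, whereas Mt3 was nearly flat within numbers. None passed the test over 6 mice (log2 fold changes 0.13 ± 0.24 SE for Mt1, 0.20 ± 0.30 for Mt2 and -0.02 ± 0.18 for Mt3, adjusted p = 1.0 by edgeR).

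Among transcriptional regulators, Id3, an inhibitor of bHLH factors, was at 146.2, 76.6 and 73.0 TPM in WT and at 105.8, 75.9 and 79.5 TPM in Prmt9 KO. It was high in the mice numbered 1 of both genotypes, more so in WT, and had the lowest log2 fold change of all members (-0.30 ± 0.42 SE, adjusted p = 1.0 by edgeR). Its relative Id4 was the reverse, at 12.5 to 13.3 TPM in those mice and 25.8 to 28.8 TPM in the others. Sox9, which starts gliogenesis, lay within 8.03 to 11.2 TPM.

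Most members split by mouse number. In 26 of 35 (74.3%) both mice numbered 1 were below the other 4 in TPM, against 45.8% of all genes. In 3 members, Fabp7, Id3 and Chrdl1, both were above, against 19.0% of all genes. On the CPM scale of the fit the counts were 23 below (65.7%, against 31.5% of all genes) and 7 above (against 32.7%), and the 23 were all among the 26. Members that overlapped in TPM and were above in CPM were Slc6a11, Aqp4, Mlc1 and Aldh1l1. The ratio of the mean of these 2 mice to the mean of the others ran from 0.349 for Gjb6 to 7.15 for Fabp7 in TPM, and from 0.451 to 8.37 in CPM. The labels give all mice the same age.

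Members known from immature and from mature astrocytes were then compared within each mouse. Mature members were Slc1a2, Aqp4, Gja1, Gjb6, Aldoc, Glul, Slc6a11, Slc7a10, Ntsr2, Ppp1r3c, Mlc1, Hepacam, Acsbg1, Chrdl1, Gpc5, S100b, Aldh1l1, Atp1b2, Ndrg2 and Slc4a4. Gfap, Sparcl1, Clu, Cpe and the metallothioneins were in neither list. The mean log2(TPM + 1) of 8 immature members (Fabp7, Slc1a3, Sox9, Id3, Id4, Fgfr3, Sparc and Gpc4) minus that of 20 mature members was -0.17, -0.72 and -0.77 in the WT mice and -0.24, -0.68 and -0.74 in the Prmt9 KO mice. Genotypes overlapped (-0.55 ± 0.33 and -0.55 ± 0.27, SD, n = 3 each), and the mice numbered 1 had the highest balance in both. The mature members differed by number, with means of 6.33 and 6.44 in those mice and 6.88 to 7.01 in the others. The mean of the immature members lay at 6.16 to 6.26 in all 6 mice, but its members went opposite ways in the mice numbered 1, where 2 (Fabp7 and Id3) were above and 5 were below the other 4. Without Fabp7 the balance was -0.63, -0.78 and -0.83 in WT and -0.71, -0.73 and -0.77 in Prmt9 KO.

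**Figure D3:**
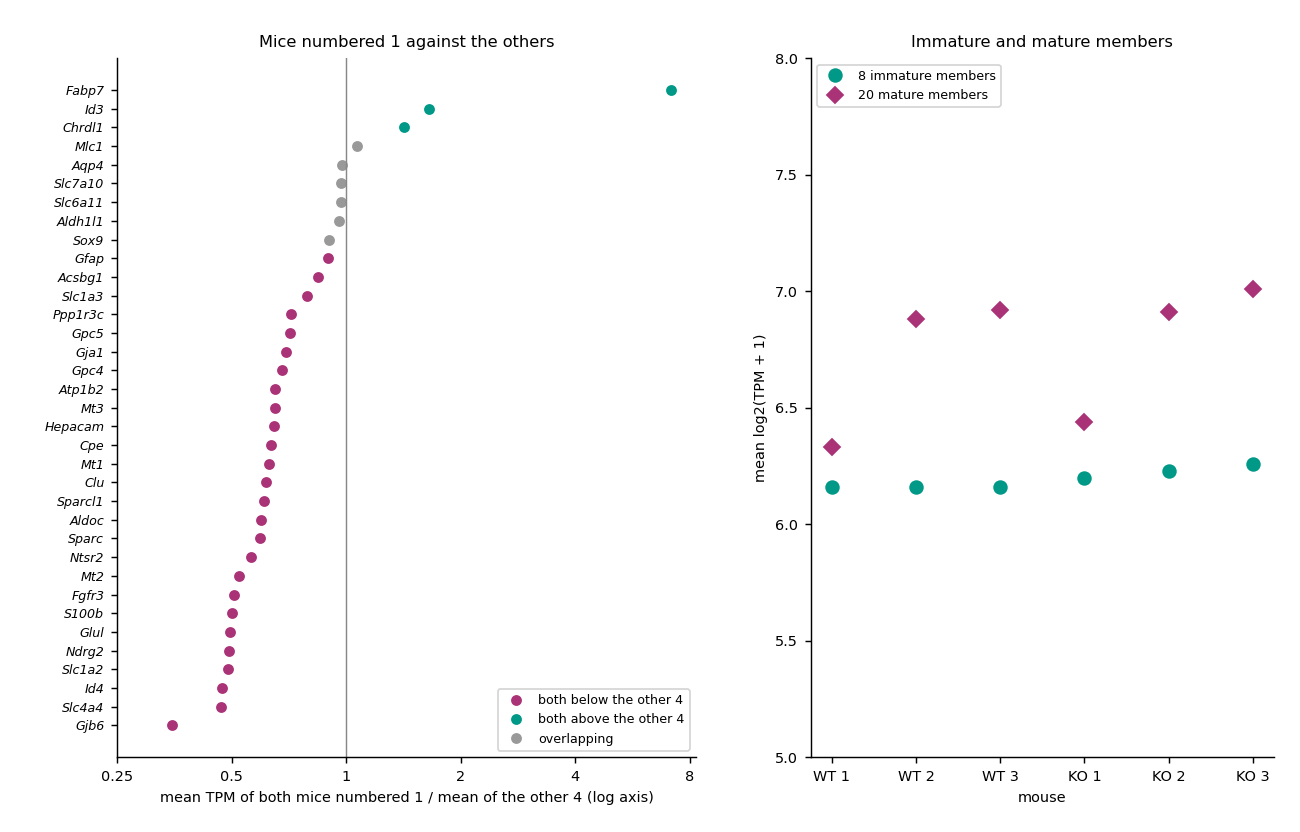
Left, ratio of the mean TPM of both mice numbered 1 to the mean of the other 4 for each of the 35 members (log axis), coloured by whether both lie below the other 4 (26), both lie above them (3) or neither holds (6). Right, mean log2(TPM + 1) of 8 immature and 20 mature members in each mouse (the axis starts at 5); the mature mean is 6.33 and 6.44 in the mice numbered 1 and at least 6.88 in the others.

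With both mice numbered 1 left out, which leaves 2 mice a group, the errors of the members fell to between 0.03 and 0.16 on the log2 scale. In that fit 12 members (34.3%) were higher in Prmt9 KO with an unadjusted p below 0.05, against 7.82% of all genes, and 2 were lower, against 8.6%. None was called, and the lowest adjusted p was 0.096 by edgeR, for Fgfr3 (log2 fold change 0.32 ± 0.04 SE). The others that were higher were Gfap (0.11), Slc1a2 (0.09), Slc1a3 (0.10), Glul (0.18), Gjb6 (0.31), Hepacam (0.16), Aldoc (0.16), Sparcl1 (0.12), Sparc (0.25), Mt1 (0.34) and Mt2 (0.32). In the same 4 mice the median log2 fold change of 10 choroid plexus and ependymal markers was 0.63 (2 with an unadjusted p below 0.05, both higher) and that of 10 oligodendrocyte markers was -0.26 (0 with such a p by edgeR), and their part in the members' values was not tested. The 2 members that were lower were Aqp4 (-0.31 ± 0.06 SE) and Gpc4 (-0.18 ± 0.06 SE). The median over the 35 members was 0.08 in this fit, beside 0.00 over all genes. In TPM, 14 members were higher in the knockout mouse of every number, where 20.7% of all genes were, and 1 was lower, where 8.04% were. On the CPM scale only 6 were higher and 3 were lower, so these counts depend on the scale. The share of all genes was not taken on the CPM scale, so the 6 cannot be set against a background.

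**Figure D4:**
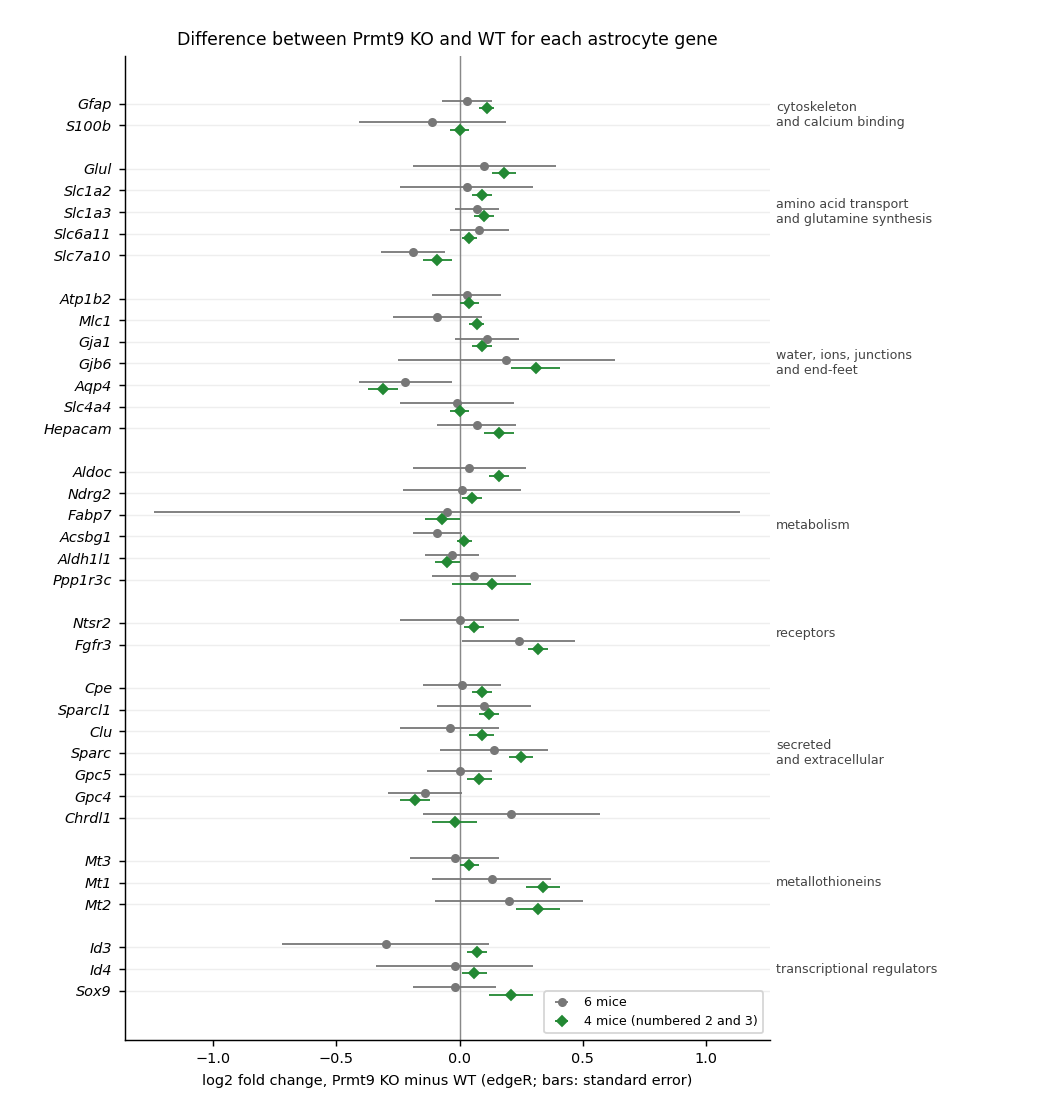
Log2 fold change, Prmt9 KO minus WT, of each astrocyte gene with its standard error (edgeR), for all 6 mice (grey circles) and for the 4 mice numbered 2 and 3 (green diamonds). With 6 mice the errors reach 1.19 (Fabp7) and most cross 0; with 4 mice they are at most 0.16, Fgfr3 is at 0.32 and Aqp4 at -0.31.

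Further genes of the astrocyte programme were not called with 6 mice either. Of 45 further astrocyte genes, 0 had an unadjusted p below 0.05 by edgeR. Those with the widest log2 fold changes were Etnppl, a phosphoethanolamine lyase (0.82 ± 1.39 SE, at 0.235 to 24.7 TPM), and Rgcc, a regulator of the cell cycle (-0.56 ± 0.47 SE), and both differed by mouse number. Of 28 regulators of gliogenesis 0 had such a p, and the widest were Id1 (-0.36 ± 0.51 SE) and Notch3 (-0.26 ± 0.19 SE). Of 36 genes of reactive astrocytes, 1 did: Slc10a6, a steroid sulfate transporter, at 0, 0.0347 and 0.0166 TPM in WT and 0.0853, 0.0985 and 0.117 TPM in Prmt9 KO (log2 fold change 2.50 ± 0.82 SE, adjusted p = 1.0 by edgeR). This gene was close to absent in every mouse. Without both mice numbered 1, 17 of the 45, 4 of the 28 and 9 of the 36 were higher at an unadjusted p below 0.05, and 6, 1 and 2 were lower, beside 7.82% and 8.6% of all genes; the regulators of gliogenesis were nearest to that background.

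Markers of other cells gave no call either. Summed over 10 genes each, neuronal markers lay between 4364.6 and 5811.6 TPM, microglial markers between 343.1 and 450.4 TPM, and vascular markers between 271.2 and 302.8 TPM. Single markers varied more than these sums, and some shifted in opposite directions. Both mice numbered 1 were below all others in 7 neuronal, 5 microglial and 3 vascular markers, against 45.8% of all genes. They were above all others in 2 neuronal, 1 microglial and 3 vascular markers, against 19.0% of all genes. With 10 markers a list, these counts do not set the markers apart from genes at large. Snap25 was at 517 and 781 TPM in the mice numbered 1 against 1130 to 1270 TPM. Stmn2 was at 880 and 1170 TPM against 345 to 393 TPM. The sum of choroid plexus and ependymal markers varied most, at 7377.6, 655.4 and 2055.1 TPM in WT and 928.0, 2390.9 and 3406.0 TPM in Prmt9 KO. Ttr held most of this sum, at 7160, 589 and 1950 TPM in WT and 844, 2270 and 3260 TPM in Prmt9 KO. Folr1 had the same order of mice. Kl did not, at 7.44 TPM in the WT mouse numbered 1 and 15.5 TPM in the Prmt9 KO mouse numbered 3. Foxj1 lay within 6.55 to 10.4 TPM. Of the 10 markers, 3 (Ccdc153, Rarres2 and Dynlrb2) were above the other 4 in both mice numbered 1, against 19.0% of all genes. Dynlrb2 was at 19.2 and 10.8 TPM in these mice and at 5.8 to 8.2 TPM in the others. The part of the choroid plexus in the values of secreted members that it also makes, such as Clu, was not tested.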

How the data were processed

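PolyA RNA of 6 hippocampi (3 WT, 3 Prmt9 KO) was sequenced from stranded libraries as paired ends. The authors quantified transcripts with kallisto (0.46.0 in the submitters' processing notes, an earlier release in the methods) on GRCm38, and deposited estimated counts and TPM per transcript, and TPM per gene. Here, estimated counts were summed per gene (116622 of 118783 transcripts matched GENCODE M21), rounded and tested in edgeR 4.0.16 (R 4.3.3; TMM, filterByExpr, quasi-likelihood F test, Benjamini-Hochberg over all genes). Calls needed an adjusted p below 0.01 and a fold above 1.5. Transcripts were tested likewise, and their usage by diffSpliceDGE. Shares of TPM were compared by exact permutation. Probabilistic assignment of reads to similar transcripts affects shares, and no junction reads were analysed here. The scripts were tested on simulated data. DESeq2 1.42.0, limma 3.58.1 on log2(TPM + 1) or log2(TPM + 0.1), other filters, a block, a batch term and leaving out mice were alternatives. Deviations of WT and Prmt9 KO mice of the same number correlated at 0.517, 0.381 and 0.353, so a block on number was run, on the data alone; mice 2 and 3 correlated as well across numbers (0.394 and 0.362), so the data set number 1 apart from the rest and do not tell pair 2 from pair 3. Replicates are individual mice.

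The members and lists were chosen with earlier results of these data known. Per-mouse levels are given for the 8 members highest in WT, those with an unadjusted p below 0.05 or groups that did not overlap, the 4 with the largest fold change, the metallothioneins, Gfap, Fabp7 and Id3; from each list, genes with an unadjusted p below 0.05, or else the 2 with the largest fold change. Sequences are from the GENCODE M21 transcripts. One sequence is not reported here.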

Additional observations from a re-analysis of the deposited data

How the results depend on the processing

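With the mouse number as a block (pairing mice 1, 2 and 3), 0 members were called as genes, as transcripts or for usage, and 2 members, Fgfr3 and Aqp4, had an unadjusted p below 0.05 (5.75% of all genes did). A batch term for the mice numbered 1 gave 3 such members (9.74% of all genes), leaving out the Prmt9 KO mouse numbered 1 gave 4 (1.2%) and leaving out both mice gave 14 (16.4%). The median log2 fold change of the members was 0.00 with the block and ran from -0.08 to 0.16 when 1 mouse was left out. The one change in a count of calls was transcript usage, with 2 members called without both mice numbered 1 (1.09e-09 as the lowest adjusted p). Gene calls stayed at 0 under DESeq2, limma, other size factors, no filter and every mouse left out. The immature minus mature balance differed between genotypes by -0.16 to 0.19 with 1 mouse left out and by 0.00 with the block. The shares of Gfap-202 (2.6 to 3.0 percentage points), Ntsr2-205 (8.9 to 10.8), the Ndrg2 exon (-8.8 to -6.9) and Mlc1-202 (1.7 to 3.2) kept their direction with 1 mouse left out. The Slc4a4 exon did not, running from -7.8 to 4.9, with 4.9, 1.0 and 0.4 without the WT mouse 1, the Prmt9 KO mouse 2 and the Prmt9 KO mouse 3. Of 223 alternative fold changes of 16 members, 34 changed sign, none of them called, and the largest shift was 1.79 (Fabp7). With 3 mice a group, no exact test could reach 0.05.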
